A study of Mus musculus with 31 samples.

Results

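The tumor necrosis factor (TNF) superfamily is a set of signalling proteins, and 10 of its genes were followed in mouse Ly6C-high monocytes. They were 5 receptor genes (Tnfrsf1a, Tnfrsf1b, Tnfrsf14, Tnfrsf21 and Fas) and 5 ligand genes (Tnfsf9, Tnfsf10, Tnfsf12, Tnfsf13 and Tnfsf13b). The genes were taken by symbol from a table of estimated read counts with 24411 entries. All 10 had counts and passed the filter on low counts, which kept 12337 of the 18544 entries with a count. RNA-seq was done on 3 libraries of blood monocytes from healthy mice (healthy blood), 3 from the blood of mice carrying Lewis lung carcinoma under the skin (LLC blood) and 3 from those tumors (LLC tumor). Lewis lung carcinoma is a transplantable mouse lung cancer line. All mice were C57BL/6J, with no modified allele and no drug named in the labels, which give neither age nor sex for these libraries. In all 3 groups the sort gate was CD11b+ Ly6G- Ly6Chi MHC-II-. The labels do not say whether the LLC blood and LLC tumor libraries came from the same mice, or whether a library is 1 mouse or a pool, so the p-values measure the spread between these libraries only.

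TNF ligands are mostly made as membrane proteins that act as trimers, and many can be cut from the surface. Receptors with a death domain, such as Tnfrsf1a, Tnfrsf21 and Fas, can recruit adaptors that start caspase activation. Others, such as Tnfrsf1b and Tnfrsf14, bind TRAF adaptors and lead to NF-kB and MAP kinase signalling. Monocytes both receive these signals and carry ligands that act on T cells, B cells and tissue cells.

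Total counts ran from 10457492 to 20706412 per library. Levels are given as CPM (estimated counts scaled to library size with TMM factors), which are not corrected for transcript length, so they are compared between groups of 1 gene and not between genes. The scaling factor was 0.798 in LLC tumor 1 and 0.968 to 1.067 in the other 8 libraries. The 8 monocyte markers were above 3 counts in every library, with a summed level of 8014 to 8647 CPM in healthy blood, 8744 to 8906 in LLC blood and 8561 to 13700 in LLC tumor. LLC tumor libraries also held 7 of 7 fibroblast markers above 3 counts, summing to 1175 to 4060 CPM, against 5.81 to 16.3 in healthy blood. LLC blood 1 stood apart from LLC blood 2 and LLC blood 3 in this list, at 393.8 against 3.44 and 4.40 CPM, with Col1a1 at 201.7 and Col1a2 at 124.2 CPM. Macrophage markers (6 listed, all above 3 counts in every library) summed to 922 to 1579 CPM in LLC tumor, 305 to 341 in LLC blood and 323 to 342 in healthy blood. Adgre1 made up most of the blood sums, and the list's members did not move together: from LLC blood to LLC tumor 5 of 6 rose and Adgre1 fell, and from healthy blood to LLC blood 4 of 6 fell, such as C1qc, at 3.80 to 11.7 CPM in healthy blood and 1.69 to 2.18 in LLC blood. Epithelial tumor cell markers (5 listed) summed to 7.89 to 9.47 CPM in healthy blood and 3.63 to 5.96 in LLC blood. In LLC tumor their sum was 78.6 to 102.1 CPM, most of it Cdh1, at 66.15, 58.39 and 40.55. Of 4 tested, 3 were higher and 1 lower in LLC tumor than LLC blood. Epcam was at 0 throughout LLC blood and at 0, 0 and 0.179 CPM in LLC tumor. Ly6C-low monocyte markers summed to 2977 to 3001, 2760 to 3404 and 1054 to 1589 CPM, with all 6 above 3 counts in every library, and 4 of 6 lower and 1 higher in LLC tumor than LLC blood. Neutrophil markers (9 in the table) summed to 646 to 738, 689 to 827 and 372 to 424 CPM, with 5 of 9 lower and 1 higher in that comparison. Markers of NK cells, T cells, B cells and dendritic cells were lower in LLC blood or LLC tumor than in healthy blood and are given beside the results they move with. The part of other cells in the changes below was not tested.

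For 8 of the 10 genes, the RefSeq promoter table (build GRCm38.p6, the same coordinates as mm10) held the sequence before the annotated start; Tnfsf9 and Tnfsf12 had no entry. The 4 promoters shown belong to genes that were lower in LLC tumor than in LLC blood and whose windows lay outside the gene itself, apart from the last bases of the Fas window; the Tnfsf13 window lies within a joined gene described further on. Each line gives the 250 bases before the start, 5′ to 3′ on the gene's strand, with motif matches in capitals.
Tnfrsf1b, chr4:145246871-145247120, minus strand: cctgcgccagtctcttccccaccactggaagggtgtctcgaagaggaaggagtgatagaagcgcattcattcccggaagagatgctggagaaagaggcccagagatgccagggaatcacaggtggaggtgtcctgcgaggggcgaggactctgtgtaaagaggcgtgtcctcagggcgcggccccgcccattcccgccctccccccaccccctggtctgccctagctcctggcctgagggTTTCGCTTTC
Tnfrsf21, chr17:43016305-43016554, plus strand: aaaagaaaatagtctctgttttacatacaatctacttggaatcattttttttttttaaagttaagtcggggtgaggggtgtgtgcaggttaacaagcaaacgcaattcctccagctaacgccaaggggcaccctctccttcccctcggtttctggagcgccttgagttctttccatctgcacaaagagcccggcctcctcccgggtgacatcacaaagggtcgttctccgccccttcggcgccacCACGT
Fas, chr19:34290409-34290658, plus strand: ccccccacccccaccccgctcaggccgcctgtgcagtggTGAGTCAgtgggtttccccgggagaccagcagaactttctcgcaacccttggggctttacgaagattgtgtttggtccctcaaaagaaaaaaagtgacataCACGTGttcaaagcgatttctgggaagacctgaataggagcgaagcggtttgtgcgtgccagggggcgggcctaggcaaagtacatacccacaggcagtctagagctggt
Tnfsf13, chr11:69685555-69685804, minus strand: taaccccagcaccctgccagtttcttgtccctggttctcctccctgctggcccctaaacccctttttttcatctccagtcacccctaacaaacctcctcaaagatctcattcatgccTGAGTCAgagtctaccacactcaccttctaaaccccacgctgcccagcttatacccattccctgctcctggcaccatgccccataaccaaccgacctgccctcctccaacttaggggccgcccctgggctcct

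The capitals mark 3 kinds of match, searched on both strands. TGANTCA, the AP-1 type site, was found in Fas at position -211 and in Tnfsf13 at position -133, counted from the start; 6.75% of the 32851 promoter windows of this length hold it. ACGTG, the core bound by hypoxia-inducible factors, was found in Tnfrsf21 at position -5 and on both strands of a single CACGTG in Fas, against 16.6% of all windows. An interferon-type element, GAAA repeated after a gap of any 2 bases, was found in reverse orientation in Tnfrsf1b at position -10, against 2.98% of all windows. The NF-kB type letters, GGGA and TTTCC with 1 free base between them (0.356% of all windows), were in none of the windows of the 8 genes. The looser form, GGGA and CC with 4 free bases between them (17.6%), was in Tnfrsf14 only, at position -148, whose window also held the interferon-type letters at position -64. Tnfsf13b had 2 windows, and the second held the AP-1 type letters at position -127 and the interferon-type letters at position -16. The Tnfrsf1a and Tnfsf10 windows held none of the 5 motifs. These matches describe the letters and were not related to binding.

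The first comparison, LLC tumor with LLC blood, sets tumor monocytes beside those that circulate in tumor-bearing mice. By edgeR's quasi-likelihood test with Benjamini-Hochberg adjustment over all genes, 7 of the 10 genes changed at an adjusted p under 0.05: Tnfsf9 rose, and Tnfsf13b, Tnfrsf21, Tnfsf13, Tnfrsf1b, Fas and Tnfrsf14 fell. Among all 12337 genes, 61.3% changed in this comparison, 29.6% upward and 31.7% downward. In these bulk libraries, fewer cells with a transcript and less of it per cell cannot be told apart. The median log2 fold change was -0.68 over the 10 genes and -0.03 over all genes. The 3 LLC tumor libraries did not overlap the 3 LLC blood libraries for the same 1 gene that rose and the same 6 that fell, where 65.9% of all genes did not overlap (31.4% higher and 34.5% lower).

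LLC blood compared with healthy blood asks what a tumor elsewhere goes with in circulating monocytes. There 4 of the 10 genes changed, with Tnfrsf14 higher and Tnfsf13b, Tnfsf12 and Fas lower, against 23.6% of all genes (14.0% higher and 9.61% lower). The median log2 fold change was -0.24, against -0.01 over all genes. LLC blood libraries lay apart from healthy blood libraries for 1 gene that was higher and 7 that were lower, and 51.9% of all genes lay apart (25.7% higher and 26.1% lower). The count of 4 fell to 1 without healthy blood 3, LLC blood 2 or LLC blood 3, and to 2 without healthy blood 1 or healthy blood 2. Calls over all genes fell too, from 2917 to between 1494 and 1697 in the first fits named and to 1993 and 1873 in the others. Each of these fits tested 12678 to 12760 genes. The count of the 10 genes was 6 without LLC tumor 1, with 5064 of 12864 genes called. That library enters this comparison only through the shared estimate of the spread, the scaling and the filter.

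In LLC tumor compared with healthy blood, 9 of the 10 genes changed, 2 upward (Tnfsf9 and Tnfrsf14) and 7 downward, against 66.5% of all genes (33.5% higher and 33.0% lower). Tnfsf10 was the exception. The median log2 fold change was -1.04, against -0.00 over all genes. LLC tumor and healthy blood libraries lay apart for 2 genes that were higher and 8 that were lower, against 69.8% of all genes (34.4% higher and 35.3% lower). The 3 comparisons share their libraries in pairs, so they are not independent of each other.

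**Figure D1:**
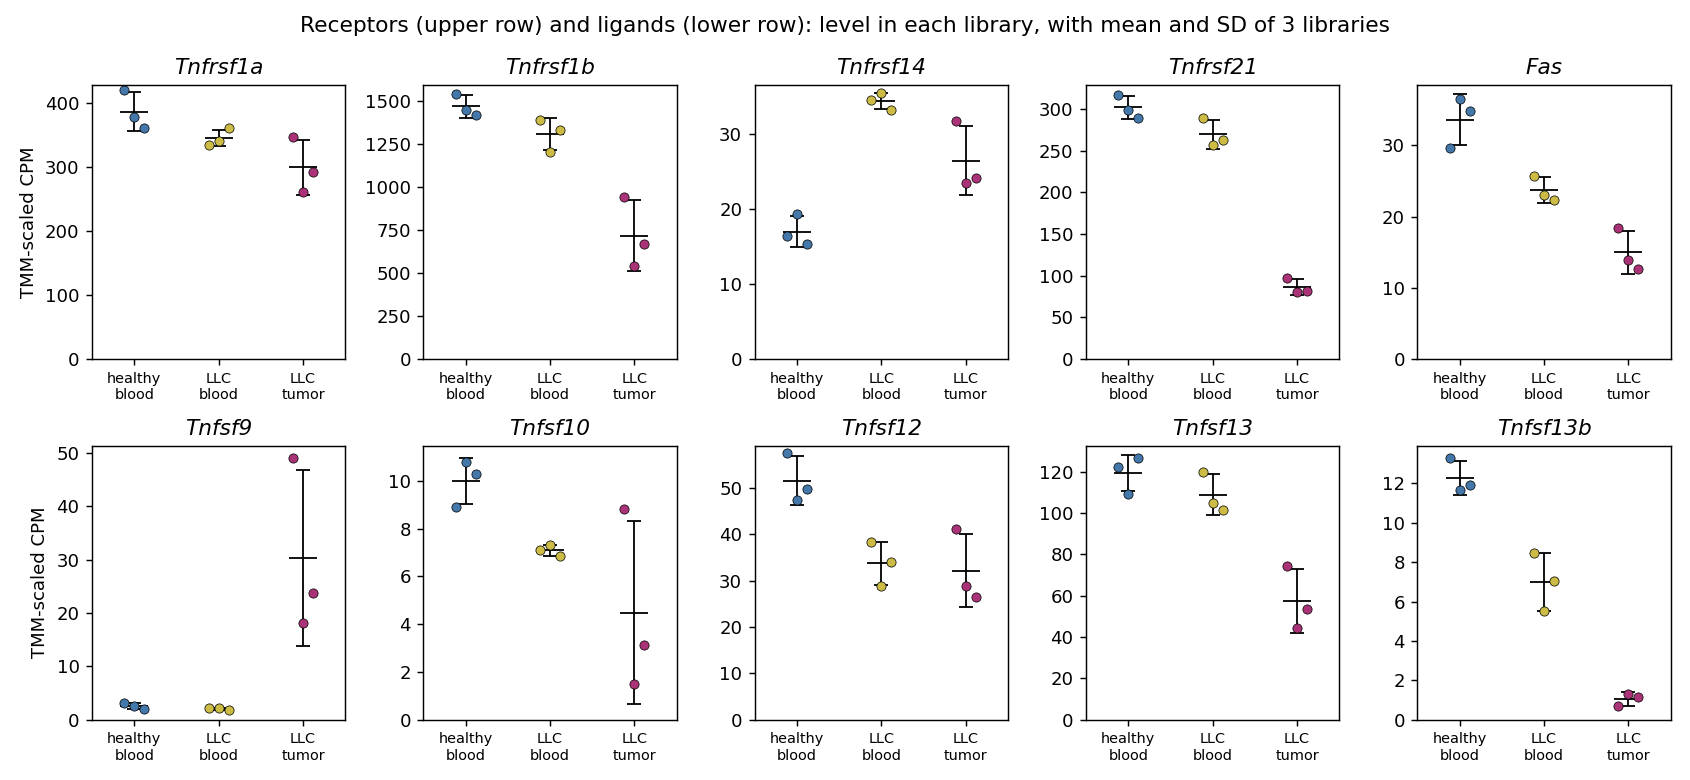
Level of each gene in each library in TMM-scaled CPM (y axes start at 0 and differ between panels), by group; points are libraries 1 to 3 from left to right, bars the mean and SD of 3 libraries. Tnfsf9 was at 18.2 to 49.0 CPM in LLC tumor and at most 3.11 in blood, while Tnfsf13b was at most 1.33 CPM in LLC tumor and at least 5.51 in blood.

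Of the 5 receptor genes, Tnfrsf21 had the largest change from LLC blood to LLC tumor. It encodes death receptor 6, a death-domain receptor, and lies at chr17:43016555-43089188. Its level was 316.7, 299.0 and 289.5 CPM in healthy blood, 289.1, 257.0 and 262.3 in LLC blood, with the LLC tumor libraries at 97.4, 80.8 and 81.1. The tumor libraries lay far below both blood groups, which lay side by side. The fall from LLC blood to LLC tumor was 3.12-fold (log2 fold change -1.64 ± 0.10 SE, adjusted p = 9.87e-07). From healthy blood to LLC blood the log2 fold change was -0.16 ± 0.09 (adjusted p = 0.233); this passed the threshold without LLC tumor 1 (-0.21, adjusted p = 0.037) and with limma-voom quality weights (adjusted p = 0.0195).

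Both classical TNF receptors were measured. Tnfrsf1b (chr4:145212368-145246870), the TNF receptor without a death domain, was at 1542, 1447 and 1417 CPM in healthy blood, 1390, 1205 and 1329 in LLC blood, with the LLC tumor libraries at 943, 542 and 669. The tumor libraries were the 3 lowest. Tnfrsf1b fell 1.82-fold from LLC blood to LLC tumor (log2 fold change -0.87 ± 0.18 SE, adjusted p = 0.00241), and its log2 fold change of -0.17 ± 0.18 in LLC blood against healthy blood did not pass the test (adjusted p = 0.542). Tnfrsf1a (chr6:125349723-125362483), the death-domain receptor that most cells carry, was at 419.3, 378.1 and 360.2 CPM in healthy blood, 334.5, 339.9 and 359.5 in LLC blood, with the LLC tumor libraries at 345.6, 260.0 and 291.4. Neighbouring groups lay close together for it, and LLC tumor 1 lay within the range of LLC blood. From LLC blood to LLC tumor its log2 fold change was -0.21 ± 0.11 (adjusted p = 0.139), with an adjusted p of 0.0116 without LLC tumor 1. It fell from healthy blood to LLC tumor (-0.37 ± 0.11, adjusted p = 0.0158), a call that was lost without healthy blood 1 (adjusted p = 0.0559), LLC tumor 2 (0.0516) or LLC tumor 3 (0.0521).

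Within each library, the ratio of Tnfrsf1b to Tnfrsf1a counts does not depend on scaling between libraries. It was 3.68, 3.83 and 3.93 in healthy blood, 4.16, 3.55 and 3.70 in LLC blood, with the LLC tumor libraries at 2.73, 2.08 and 2.29. All 3 tumor ratios were below all 6 blood ratios, and the blood groups overlapped. The exact two-sided permutation test on 3 against 3 libraries gave p = 0.1 for LLC tumor against either blood group, the smallest p this design allows, and p = 1 between the blood groups.

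**Figure D2:**
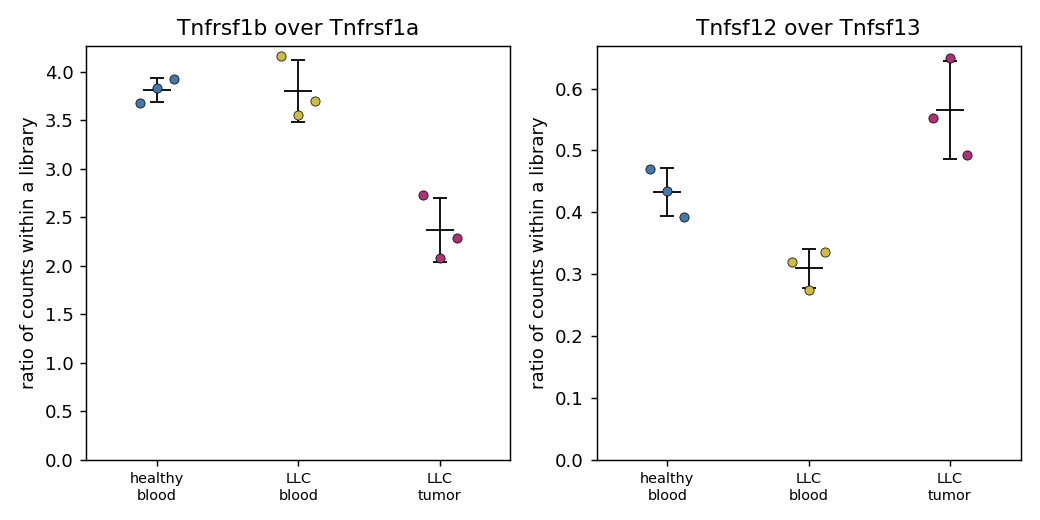
Ratio of counts of a gene pair within each library (y axes start at 0), Tnfrsf1b over Tnfrsf1a on the left and Tnfsf12 over Tnfsf13 on the right; points are libraries, bars the mean and SD of 3 libraries. The left ratio was 2.08 to 2.73 in LLC tumor against 3.55 to 4.16 in blood, and the right ratio was 0.493 to 0.650 in LLC tumor against 0.274 to 0.470 in blood.

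Tnfrsf14 was the only 1 of the 10 genes that was higher in LLC blood than in healthy blood. It encodes HVEM, the receptor of Tnfsf14 (LIGHT), which also binds the T cell and B cell inhibitory receptor BTLA, and lies at chr4:154918487-154928620. Its level was 16.4, 19.4 and 15.3 CPM in healthy blood, 34.5, 35.5 and 33.3 in LLC blood, with the LLC tumor libraries at 31.8, 23.5 and 24.1. The LLC blood libraries were the 3 highest, the healthy blood libraries the 3 lowest, and no groups overlapped. The rise in LLC blood was 2.02-fold (log2 fold change 1.02 ± 0.13 SE, adjusted p = 0.00102) and it held in all 20 alternatives (0.94 to 1.06). The decrease of Tnfrsf14 from LLC blood to LLC tumor (-0.38 ± 0.13, adjusted p = 0.0302) was lost with DESeq2 or its size factors and without LLC blood 1, LLC blood 2, LLC tumor 2 or LLC tumor 3, with adjusted p up to 0.103. LLC tumor stayed above healthy blood (0.63 ± 0.13, adjusted p = 0.00245).

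Fas (chr19:34290647-34327775), the receptor of Fas ligand and a classical inducer of apoptosis, was lower in each successive group. It was at 29.6, 36.5 and 34.8 CPM in healthy blood, 25.7, 23.1 and 22.3 in LLC blood, with the LLC tumor libraries at 18.4, 13.9 and 12.6. No 2 groups overlapped. The fall from LLC blood to LLC tumor was -0.66 ± 0.15 on the log2 scale (adjusted p = 0.00346), and that from healthy blood to LLC tumor was -1.17 ± 0.15 (adjusted p = 9.38e-05). The step from healthy blood to LLC blood (-0.51 ± 0.14, adjusted p = 0.0297) was lost without healthy blood 2, healthy blood 3, LLC blood 2 or LLC blood 3, with adjusted p up to 0.119. It held without LLC blood 1 (-0.56, adjusted p = 0.0441).

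Of the 5 ligand genes, Tnfsf9 was the one that rose in LLC tumor. It encodes the ligand of the T cell costimulatory receptor Tnfrsf9 and lies at chr17:57105287-57107758. Its level was 3.11, 2.49 and 2.08 CPM in healthy blood, 2.18, 2.14 and 1.85 in LLC blood, with the LLC tumor libraries at 49.0, 18.2 and 23.7. Every tumor library was above every blood library, and LLC tumor 1 was the highest. The rise from LLC blood was 14.7-fold (log2 fold change 3.88 ± 0.38 SE, adjusted p = 2.19e-05), and 3.38 on the log2 scale without LLC tumor 1 (adjusted p = 9.88e-07). The blood groups overlapped for Tnfsf9 (-0.32 ± 0.39, adjusted p = 0.603).

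Tnfsf13b showed the largest decrease of the 10 genes. It encodes BAFF, a survival factor for B cells, and lies at chr8:10006229-10036000. Its level was 13.3, 11.7 and 11.9 CPM in healthy blood, 8.45, 5.51 and 7.04 in LLC blood, with the LLC tumor libraries at 0.678, 1.33 and 1.16, where it rested on 6, 15 and 13 counts. The 3 groups formed 3 separate steps downward. From LLC blood to LLC tumor it fell 6.45-fold (log2 fold change -2.69 ± 0.26 SE, adjusted p = 2.15e-05), and from healthy blood to LLC tumor 11.4-fold (-3.51 ± 0.26, adjusted p = 3.51e-06). Unlike the other 9 genes, it was lowest, not highest, in LLC tumor 1 among the tumor libraries. The decrease from healthy blood to LLC blood (-0.82 ± 0.21, adjusted p = 0.0238) was lost without healthy blood 1, healthy blood 2, healthy blood 3, LLC blood 2 or LLC blood 3, with adjusted p up to 0.107, and with scaling to library totals (adjusted p = 0.052). B cell markers moved with it: 8 listed markers summed to 17.0, 189.5 and 24.6 CPM in healthy blood, 9.98 to 13.6 in LLC blood and 1.97 to 2.15 in LLC tumor, with 1 of 8 above 3 counts in every library of LLC blood and of LLC tumor, and Cd79a, Ms4a1, Blk and Fcer2a at 0 in LLC tumor. Dendritic cell markers also moved with it, in LLC tumor only in part. The 7 markers summed to 77.4 to 83.0 CPM in healthy blood, 23.1 to 37.5 in LLC blood and 7.80 to 9.41 in LLC tumor. Of these, 7, 4 and 4 were above 3 counts in every library of the group and none was at 0 throughout. Of 6 tested, 5 were lower in LLC blood against healthy blood, and 2 were lower and 1 higher in LLC tumor against LLC blood. Flt3 and Cd209a made up most of the sums in both blood groups. Cd209a was at 26.9 to 39.8, 1.62 to 6.73 and 0.178 to 0.792 CPM. Flt3 was at 32 to 41, 18 to 27 and 2.9 to 3.3 CPM, and Clec9a at 4.4 to 4.6, 1.2 to 1.5 and 1.1 to 4.2. In healthy blood 2 the B cell marker sum was 189.5 CPM and the Tnfsf13b level 11.7 CPM, close to the 13.3 and 11.9 of its group. The part of B cells and dendritic cells in the Tnfsf13b result was not tested.

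Tnfsf13 encodes APRIL, which shares the receptors TACI and BCMA with BAFF, and lies at chr11:69682577-69685554. Its level was 122, 109 and 127 CPM in healthy blood, 120, 105 and 101 in LLC blood, with the LLC tumor libraries at 74.6, 44.4 and 53.7. The blood groups overlapped, and the tumor libraries were the 3 lowest. Tnfsf13 fell from LLC blood to LLC tumor by 0.92 on the log2 scale (SE 0.17, adjusted p = 0.00102), and its log2 fold change between the blood groups was -0.13 ± 0.16 (adjusted p = 0.594).

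Tnfsf12 encodes TWEAK, the ligand of Tnfrsf12a (Fn14), and lies at chr11:69686240-69696098, with a gap of 685 bases to Tnfsf13. Its level was 57.5, 47.5 and 49.8 CPM in healthy blood, 38.3, 28.8 and 34.01 in LLC blood, with the LLC tumor libraries at 41.2, 28.9 and 26.5. Healthy blood was highest, and LLC blood and LLC tumor overlapped. The step down to LLC blood was called (-0.62 ± 0.17 on the log2 scale, adjusted p = 0.029), which was lost without healthy blood 1, healthy blood 3, LLC blood 2 or LLC blood 3. Between LLC blood and LLC tumor the value was -0.07 ± 0.17 (adjusted p = 0.742), and its sign turned when LLC blood 1, LLC tumor 2 or LLC tumor 3 was left out.

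The counts of Tnfsf12 and Tnfsf13 are uncertain relative to each other. RefSeq places a joined gene, Tnfsfm13 (chr11:69682577-69696098), across both, and the estimated counts of all 3 were not whole numbers in 9 of 9 libraries, as counts split between genes are. Tnfsfm13 itself had mean levels of 15.3, 10.7 and 9.33 CPM in the healthy blood, LLC blood and LLC tumor groups. Summed as 1 feature, the 3 genes were at 186 ± 12.8, 153 ± 13.7 and 99.1 ± 19.7 CPM (SD, n = 3). On that sum LLC tumor was below LLC blood (log2 fold change -0.63, adjusted p = 0.00266), and the difference of LLC blood from healthy blood did not pass the test (-0.28, adjusted p = 0.157). The ratio of Tnfsf12 to Tnfsf13 counts was 0.470, 0.434 and 0.393 in healthy blood, 0.319, 0.274 and 0.335 in LLC blood, with the LLC tumor libraries at 0.552, 0.650 and 0.493. No 2 groups overlapped in this ratio, and the exact two-sided permutation test gave p = 0.1 for each pair of groups, the smallest possible.

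Tnfsf10 (chr3:27317077-27339665) encodes TRAIL, a ligand that can kill tumor cells through death receptors. Its level was 8.92, 10.8 and 10.3 CPM in healthy blood, 7.09, 7.32 and 6.86 in LLC blood, with the LLC tumor libraries at 8.82, 1.51 and 3.13. LLC tumor 2 and LLC tumor 3 were below every blood library, and LLC tumor 1 was above every LLC blood library. The log2 fold change from LLC blood to LLC tumor was -0.69 ± 0.48 (adjusted p = 0.236) with LLC tumor 1 and -1.58 (adjusted p = 0.00053) without it, and with all libraries it passed in limma-voom (-1.11, adjusted p = 0.0437) and with quality weights. From healthy blood to LLC tumor it was -1.18 ± 0.48 (adjusted p = 0.0507), and -2.13 (adjusted p = 6.53e-05) without LLC tumor 1. That difference passed in 10 of 20 alternatives, most of which kept LLC tumor 1, among them DESeq2 (adjusted p = 0.0369), limma-voom (0.0063) and library totals (0.0143). LLC blood lay below healthy blood in all libraries (-0.50 ± 0.45, adjusted p = 0.468), and this passed the threshold when only these 6 libraries were fitted (adjusted p = 0.013) and with quality weights (adjusted p = 0.00924). A single estimate of the spread over the 3 groups includes the wide LLC tumor group.

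LLC tumor 1 was the highest tumor library for 9 of the 10 genes in CPM after TMM scaling, all but Tnfsf13b, and for 7 of 10 when counts were divided by library totals. It also differed in markers: its fibroblast sum was 1175 CPM against 3474 and 4060, and its monocyte sum 13700 against 8561 and 9000. Without it, 9 of the 10 genes changed from LLC blood to LLC tumor (1 up, 8 down) and 10 of 10 from healthy blood to LLC tumor (2 up, 8 down). Calls over all genes rose as well, from 7566 to 8636 and from 8209 to 9423, with 12864 in place of 12337 genes tested.

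**Figure D3:**
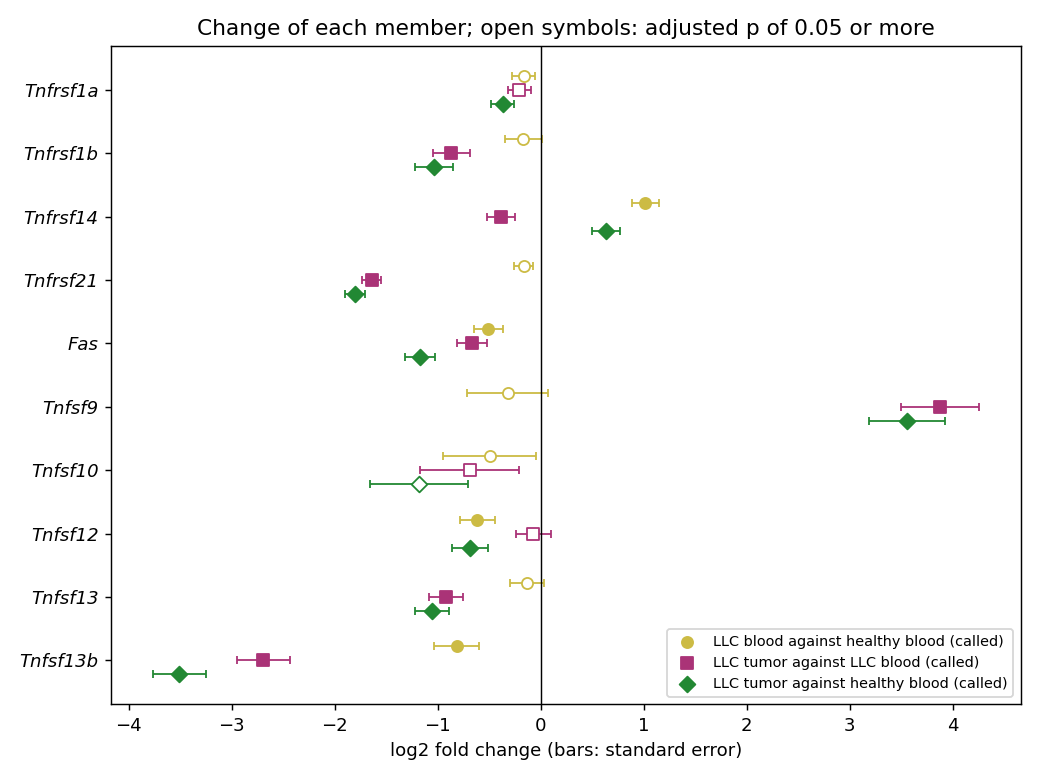
Log2 fold change of each gene (x axis, bars are standard errors) in LLC blood against healthy blood, LLC tumor against LLC blood and LLC tumor against healthy blood; filled symbols have an adjusted p under 0.05, open symbols do not. Tnfsf9 is far to the right in both tumor comparisons (3.88 and 3.56), Tnfsf13b far to the left (-2.69 and -3.51), and Tnfrsf14 is the filled symbol right of 0 among the blood comparisons.

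Genes with the most similar pattern over the 9 libraries were sought for the 2 genes with the widest range, among 6913 genes of at least 20 CPM. For Tnfsf9 they were 1110007C09Rik (Pearson r 0.998), Egln1 (0.998) and Eif5a (0.997). For Tnfsf13b they were Pdcd7 (0.996), Pdcd4 (0.995) and Clec10a (0.995). These correlations of log2 CPM describe 3 groups of 3 libraries, which also share the depth and scaling of each library, and are given with no test.

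Of 13 other ligand genes of the family, 5 had enough counts to be tested, and 8 (Lta, Tnfsf4, Cd40lg, Cd70, Tnfsf11, Tnfsf15, Tnfsf18 and Eda) did not. From LLC blood to LLC tumor 2 rose and 1 fell, against 29.6% and 31.7% of all genes (median log2 fold change 0.42). Tnf, the founding cytokine of the family, was at 18.7, 21.0 and 22.9 CPM in healthy blood, 9.00, 7.26 and 6.86 in LLC blood, with the LLC tumor libraries at 162, 27.8 and 48.1. It was highest in the tumor and lowest in LLC blood, with no overlap. Tnf rose 10.4-fold from LLC blood to LLC tumor (log2 fold change 3.37 ± 0.58 SE, adjusted p = 0.000757), and by 2.34 on the log2 scale without LLC tumor 1 (adjusted p = 1.33e-05). Against healthy blood its log2 fold change in LLC tumor was 1.92 (adjusted p = 0.0102), and 0.83 without LLC tumor 1. In LLC blood against healthy blood it was -1.45 ± 0.57 (adjusted p = 0.0946), which passed in 4 of 20 alternatives: with only the 6 libraries compared (adjusted p = 0.000138), with quality weights, and without LLC tumor 1 or LLC tumor 2. Ltb, which encodes lymphotoxin beta, fell 4.40-fold from LLC blood to LLC tumor (means 5.89 ± 1.20 and 1.34 ± 0.471 CPM, SD, n = 3, adjusted p = 0.00278 in edgeR). It was at 7.61, 22.3 and 10.6 CPM in healthy blood, above every LLC blood library. The log2 fold change between the blood groups was -1.21 ± 0.39 SE (adjusted p = 0.0505), and it passed in 10 of 20 alternatives. Healthy blood 2 also had the highest B cell marker sum (189.5 CPM). B cell markers were lower in LLC blood and LLC tumor, as given above, and their part was not tested.

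Fasl, the ligand of Fas, was the 1 of these 5 called between the blood groups, with Ltb just above the threshold. Of all genes, 23.6% were called there. The Fasl mean was 3.48 ± 1.42 CPM in healthy blood, 0.541 ± 0.262 in LLC blood and 0.148 ± 0.185 in LLC tumor (SD, n = 3). The decrease in LLC blood was -2.66 ± 0.57 on the log2 scale (adjusted p = 0.00964) and did not pass without healthy blood 3 or LLC blood 3 (adjusted p up to 0.0606). NK cell and T cell markers, of cell types known to carry Fas ligand, fell with Fasl between the blood groups. The 8 NK cell markers summed to 178 to 359 CPM in healthy blood, 32.8 to 48.1 in LLC blood and 6.21 to 20.5 in LLC tumor, with all 8 above 3 counts in both blood groups, 3 of 8 in LLC tumor, and Klre1 at 0 there. The 9 T cell markers summed to 40.2 to 159, 14.3 to 15.5 and 10.0 to 17.2 CPM, with 9, 4 and 3 above 3 counts in every library of the group and none at 0 throughout. All 8 NK cell markers and 7 of the 8 tested T cell markers fell between healthy blood and LLC blood. In LLC tumor against LLC blood 6 of 8 NK cell markers fell and 0 rose, whereas 2 of 8 tested T cell markers fell and 1 rose. Cd28 was at 0.324 to 0.545 CPM in LLC blood and 5.63 to 13.2 in LLC tumor. The part of these cells in the result was not tested.

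Of 23 other receptor genes, 16 were tested. From LLC blood to LLC tumor 9 rose and 6 fell, against 29.6% and 31.7% of all genes (median log2 fold change 1.59). Eda2r, which had 3 counts at most in each blood library, stays in the upper part of the list at its lower bound, so it cannot shift this median. Tnfrsf9, the receptor of Tnfsf9, was at 93.0, 76.9 and 61.6 CPM in LLC tumor and at means of 2.62 ± 0.549 in healthy blood and 0.730 ± 0.148 in LLC blood (SD, n = 3). It was 102-fold higher in LLC tumor than in LLC blood (log2 fold change 6.68 ± 0.24 SE, adjusted p = 1.43e-07), and fell between healthy blood and LLC blood (-1.80 ± 0.28, adjusted p = 0.00242). Tnfrsf12a, the receptor of Tnfsf12, rose 5.06-fold from LLC blood to LLC tumor (2.84 ± 0.922 to 14.7 ± 3.65 CPM, adjusted p = 6.09e-05 in edgeR). Its decrease in LLC blood (-0.84 ± 0.27, adjusted p = 0.0484) was lost in 10 of 20 alternatives.

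The decoy-type TRAIL receptor gene Tnfrsf23 rose from 3.50 ± 0.845 CPM in LLC blood to 92.8 ± 27.3 in LLC tumor (SD, n = 3; adjusted p = 6.1e-07 in edgeR), with counts that were not whole in 9 of 9 libraries. Tnfrsf26, a related mouse receptor gene, rose from 3.56 ± 0.683 to 70.3 ± 14.7 CPM (adjusted p = 2.57e-07 in edgeR). Tnfrsf11a, which encodes the receptor RANK of osteoclast precursors, rose 3.94-fold (adjusted p = 1.01e-05). Cd40, a receptor for T cell help, fell from 26.4 ± 5.95 to 14.5 ± 7.03 CPM (log2 fold change -0.87, adjusted p = 0.0247 in edgeR), which was lost without LLC blood 1, LLC tumor 2 or LLC tumor 3 and with only the 6 libraries compared (adjusted p up to 0.0864).

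**Figure D4:**
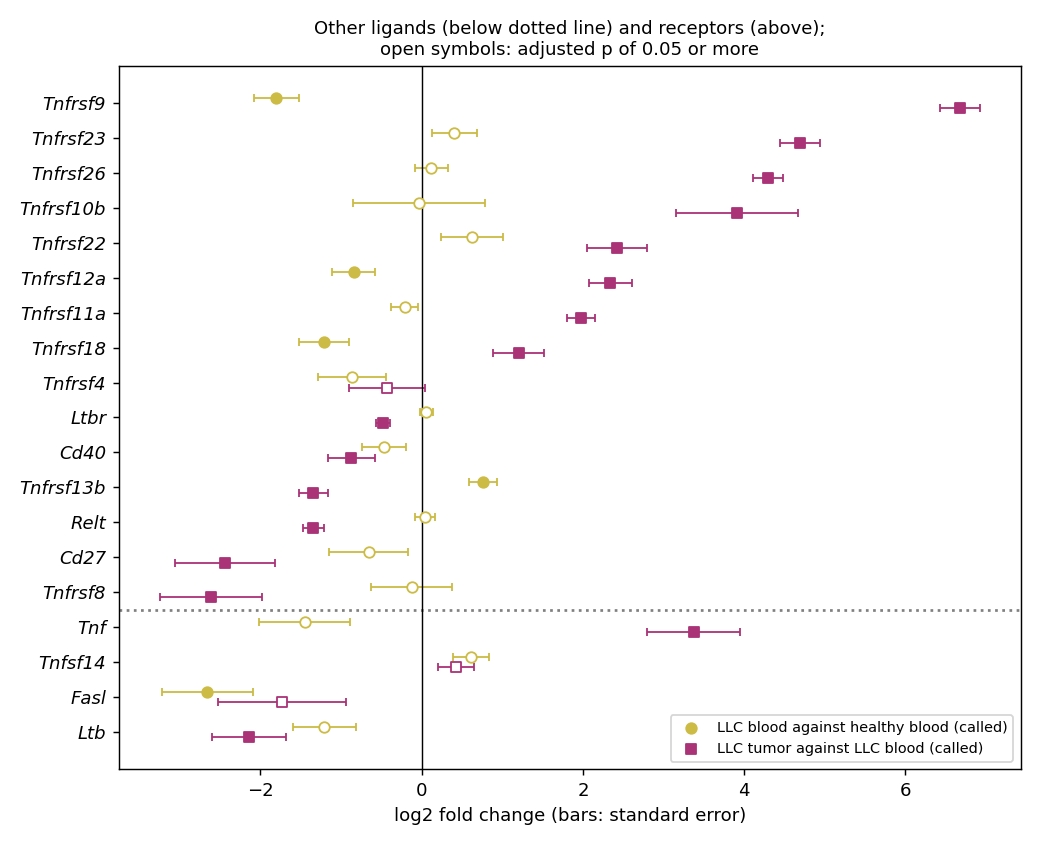
Log2 fold change (x axis, bars are standard errors) of the other ligand genes (4, below the dotted line) and receptor genes (15, above it) with a mean of at least 1 CPM, in LLC blood against healthy blood (circles) and LLC tumor against LLC blood (squares); filled symbols have an adjusted p under 0.05, and 1 gene with 3 counts at most in all libraries of a group is left out. Tnfrsf9 has the largest rise in LLC tumor shown (6.68) and a decrease in LLC blood (-1.80).

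Downstream of the receptors, 13 adaptor and ubiquitin ligase genes were tested. Of them 2 rose and 8 fell from LLC blood to LLC tumor, against 29.6% and 31.7% of all genes (median log2 fold change -0.46). Traf1, an adaptor of TNF receptors without a death domain, rose 6.06-fold (5.33 ± 1.45 to 31.9 ± 9.01 CPM, SD, n = 3, adjusted p = 2.92e-05 in edgeR), and Traf6 rose 1.72-fold (adjusted p = 0.0013). Traf5 fell 2.00-fold (22.3 ± 1.74 to 11.1 ± 0.827 CPM, adjusted p = 2.39e-05 in edgeR). Fadd, the adaptor that joins Fas to caspase-8, fell 1.46-fold (adjusted p = 0.00638), and Rbck1, a subunit of the linear ubiquitin ligase, fell 1.47-fold (adjusted p = 8.5e-05). In LLC blood against healthy blood 3 of the 13 fell, where 9.61% of all genes fell. Among the 3 were Traf1 (-1.05, adjusted p = 0.0191, lost in 4 of 20 alternatives) and Traf5 (-0.30, adjusted p = 0.0422, lost in 9 of 20).

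Of 7 death effector genes, 3 rose and 2 fell from LLC blood to LLC tumor, against 29.6% and 31.7% of all genes (median 0.31). Ripk3, the kinase of necroptosis, rose at both steps, from 31.8 ± 1.34 CPM in healthy blood to 54.8 ± 5.59 in LLC blood and 113 ± 14.9 in LLC tumor (SD, n = 3; adjusted p = 0.00155 and 3.6e-05 in edgeR). Cflar, which encodes the caspase-8 inhibitor FLIP, rose 1.83-fold in LLC tumor against LLC blood (adjusted p = 0.00084), and Casp8 rose 1.36-fold (adjusted p = 0.0013); counts of both were not whole in 9 of 9 libraries. Bid, which carries the caspase-8 signal to mitochondria, fell 2.26-fold from LLC blood to LLC tumor (84.5 ± 2.02 to 37.5 ± 2.00 CPM, adjusted p = 9.72e-07 in edgeR).

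Of 8 genes for kinases and partners that lead to NF-kB, 1 rose and 4 fell from LLC blood to LLC tumor (median -0.31). Of all genes, 29.6% rose and 31.7% fell. Ikbkb, the catalytic IKK-beta, fell 2.06-fold (471 ± 4.24 to 229 ± 9.54 CPM, SD, n = 3, adjusted p = 3.8e-06 in edgeR). Map3k14, the kinase NIK of the non-canonical branch, fell 1.63-fold (adjusted p = 0.00083). Tab2 fell 1.48-fold, Map3k7 fell 1.28-fold and Tab3, a partner of Map3k7, rose 1.81-fold (adjusted p = 0.000231, 0.00137 and 0.000693 in edgeR).

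All 6 genes for brakes on the pathway changed from LLC blood to LLC tumor, 2 upward and 4 downward (median -0.28). Of all genes, 61.3% changed, 29.6% upward and 31.7% downward. Tnfaip3, the ubiquitin-editing brake A20 and a classical NF-kB target, was at means of 46.8 ± 1.71 CPM in healthy blood and 29.8 ± 7.61 in LLC blood, and at 993, 243 and 321 CPM in the LLC tumor libraries. All 3 tumor libraries were above the blood libraries, LLC tumor 1 most. Tnfaip3 rose by 4.13 ± 0.51 on the log2 scale (adjusted p = 9.59e-05), and by 3.29 without LLC tumor 1 (adjusted p = 4.93e-07). Tnip1, an A20 partner, rose 1.36-fold (adjusted p = 0.0129), and was not called with library totals or without LLC blood 2. The deubiquitinase gene Cyld fell 1.64-fold (109 ± 3.54 to 66.7 ± 0.750 CPM, adjusted p = 1.03e-05 in edgeR). Spata2 and Otulin fell 1.42-fold and 1.27-fold (adjusted p = 0.028 and 0.0334 in edgeR), calls lost in 4 and 7 of 20 alternatives.

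Of 5 genes tied to the release of ligands and receptors from the surface, 4 rose and none fell from LLC blood to LLC tumor (median 0.69). Of all genes, 29.6% rose and 31.7% fell. The median includes Timp3, which encodes an inhibitor of such proteases and was not called (1.79 ± 1.19, adjusted p = 0.214). Timp3 had 19, 0 and 0 counts in the LLC blood libraries. Adam17, the main protease that sheds TNF and its receptors, rose 1.33-fold (212 ± 13.4 to 281 ± 42.6 CPM, SD, n = 3, adjusted p = 0.00898 in edgeR). Its partner Rhbdf2 rose 1.62-fold (adjusted p = 3.44e-05). Rhbdf1, the other partner, was at 6.45, 22.5 and 23.8 CPM in LLC tumor against a mean of 0.712 ± 0.333 in LLC blood (log2 fold change 4.69 ± 0.57 SE, adjusted p = 8.32e-05). Rhbdf1 was lowest in LLC tumor 1, the tumor library with the lowest fibroblast marker sum. The part of fibroblasts in the Rhbdf1 result was not tested. Adam10 was higher at both steps (176 ± 9.09, 243 ± 21.6 and 333 ± 60.5 CPM; adjusted p = 0.0287 and 0.0119 in edgeR), the first lost in 6 of 20 alternatives and the second without LLC blood 1 (adjusted p = 0.0541).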

How the data were processed

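RNA-seq of sorted Ly6C-high monocytes was used: 9 of the 31 samples, in 3 groups of 3; the 22 samples of other assays were not used. Per the labels' protocols, RNA was taken with TRIzol, and TruSeq libraries were read on a HiScanSQ. The submitters' processing notes name mm10, Trim Galore 0.6.4, 0.6.6 and 0.6.7, cutadapt 3.4, STAR 2.6.1d, Salmon 1.9.0, BWA 0.7.17-r1188, Bowtie2 2.4.4 and edgeR, with no role or order; the annotation is not given in the sources used here. The authors deposited estimated counts (expected counts, not normalized) under gene symbols, of which 8.56% to 9.73% per library were not whole, and a table of CPM values for 10693 genes. In the deposited CPM table, 100% of values in each library were whole reads within 0.01 read, and 100% equalled the rounded counts. The heads of blood columns hold the letters BM and were matched to blood through the sample descriptions.

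Counts were rounded and fitted with edgeR 4.0.16 (R 4.3.3; TMM, filterByExpr, quasi-likelihood test) over all 9 libraries with group as the only term. P-values were adjusted by Benjamini-Hochberg over 12337 genes in each of 3 comparisons, with 0.05 as the threshold for a call. Adjusted p-values of genes are edgeR's unless another tool is named. Standard errors were derived from the fold change and its F statistic. A floor of 3 counts equalled 0.139 to 0.339 CPM and covers counting error only. The code was run on simulated data as a check of the code only, with far fewer genes changed than were called here. Alternatives used DESeq2 1.42.0, limma 3.58.1, other scalings, filters and thresholds, a replicate block, and each library left out.

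The 10 genes and all lists were chosen with earlier results of these data known. Besides them, the genes named were, in each pathway list, up to 5 with the largest change from LLC blood to LLC tumor among those called with a mean of at least 5 CPM, plus Tnf, Fasl, Tnfrsf12a and Cd40; markers were named where they move with a result. Some genes these rules name are not reported here. Promoter sequences and positions come from RefSeq, GRCm38.p6.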

Additional observations from a re-analysis of the deposited data

How the results depend on the processing

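For the 10 genes, 556 of 606 values under the alternatives kept their direction and their side of the threshold, 24 lost a call, 23 gained 1 and 3 changed sign; for the other named genes the numbers were 1851, 59, 59 and 10 of 1979. The sign changes were all of uncalled values near 0. Tnfsf12 in LLC tumor against LLC blood was -0.26 to 0.054 (log2) over the fits without 1 library, above 0 without LLC blood 1 (0.0060), LLC tumor 2 (0.0028) and LLC tumor 3. In LLC blood against healthy blood, Fadd became -0.0047 with upper-quartile factors and was -0.031 to 0.15 over the fits without 1 library, Map3k14 became 0.00019 with library totals and was -0.17 to 0.053 over those fits, and Tnfrsf26 was -0.045 to 0.21.

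In LLC blood against healthy blood 2917 genes were called, 5884 with quality weights, 4889 with only the 6 libraries compared, 1386 at an adjusted p under 0.01 and 769 when a change of at least 1 on the log2 scale was also required; of the 10 genes 1 was called under each of the last 2, in place of 4. With that requirement, LLC tumor against LLC blood had 3538 genes in place of 7566 and 3 of the 10 genes in place of 7, and LLC tumor against healthy blood 3989 genes in place of 8209. Leaving out 1 library gave 1494 (without LLC blood 2) to 5064 (without LLC tumor 1), 6895 to 8636 and 7571 to 9423 genes, and 1 to 6, 6 to 9 and 8 to 10 of the 10 genes, in the 3 comparisons. The share of calls that were higher moved from 59.4%, 48.3% and 50.4% to 46.3%, 45.1% and 44.1% with upper-quartile factors and to 58.8%, 36.3% and 40.5% with library totals, which put the median of all genes at -0.23 in place of -0.03 in LLC tumor against LLC blood and at -0.17 in place of -0.00 in LLC tumor against healthy blood. The cause of these moves was not tested. Whole reads from the deposited CPM table, an alternative chosen after seeing the data like the sum of Tnfsf12, Tnfsf13 and Tnfsfm13, gave 2579, 6928 and 7360 genes. These reads equal the rounded counts of the main fit, so that alternative differs only in its smaller gene set, with 10692 in place of 12337 genes tested.

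With a replicate block, 2788, 7455 and 8093 genes and 4, 7 and 10 of the 10 genes were called. The labels do not say that a number pairs libraries, and the correlations of same-numbered deviations were 0.289, 0.198 and 0.0823 between the blood groups, -0.146, 0.0975 and -0.178 between LLC tumor and LLC blood, and 0.0368, 0.042 and 0.0667 between LLC tumor and healthy blood. Depth limits Tnfsf13b in LLC tumor, at 6, 15 and 13 counts, and Fasl there.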
